A study of Mus musculus with 13 samples.

Results

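Genes of the interferon response and of antigen presentation were followed in mouse retina. The list holds 36 gene symbols, of which 30 were measured among 19937 genes. A gene counted as measured where at least 1 probe set of the array carried its symbol and no other. The 30 genes fall into 3 sensors of viral RNA, 7 transcription factors, 13 antiviral effectors, 3 subunits of the immunoproteasome, 3 genes of peptide transport and loading and B2m of MHC class I. Isg15, Gbp2, H2-D1, H2-K1 and H2-T23 were read only by probe sets shared with other genes, and Ifi44 was not analysed here.

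The pooled retinae of each mouse gave 1 array of the type Affymetrix Mouse Gene 1.0 ST. PGC-1α knockout mice (KO) lack the coactivator in the whole body, not in the retina alone, and were on C57 BL/6. They were compared with purchased wildtype mice (WT), named C57 BL/6 NRj in the methods and C57BL/6j in the legends of the study. A difference in substrain cannot be told apart from the knockout. Mice of both genotypes were dark-adapted and either stayed dark (KO dark, 3 arrays, and WT dark, 3 arrays and 1 more) or were exposed to 15000 lux of white light for 2 h (KO light and WT light, 3 arrays each). Per the labels all light-exposed mice were male and the mice kept dark were female, apart from the male of WT dark replicate 4, so that light and sex cannot be told apart. The methods name male mice. They also state that pupils were dilated before the light and that the mice recovered in darkness overnight after it. When the retinae for the arrays were taken is not stated, so the values need not be those at the end of the light. The labels give no age, and the methods give a range of ages that is not split by array.

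The arrays had median intensities from 141 to 146. Ppargc1a, the targeted gene, was at log2 intensities of 10.19 to 10.40 in KO dark and 10.01 to 10.03 in WT dark. Which exons are deleted is not stated in the sources used here, and this probe set does not check the genotypes. Xist and the Y-linked genes Eif2s3y and Uty matched the labelled sex in all 13 arrays. Over all genes, WT dark replicate 4 had a mean correlation of 0.9892 with the other WT dark arrays and of 0.9975 with KO light replicates 1 and 2. KO light replicate 3 had the opposite pattern, with 0.9968 against WT dark and 0.9921 against KO light replicates 1 and 2. KO light is therefore given as labelled, with WT dark replicate 4 left out of the fit, and again with WT dark replicate 4 put in place of KO light replicate 3. The latter is called the exchanged arrays, and in it KO light replicate 3 belongs to no group. It goes against the label of WT dark replicate 4 and was chosen because of the measured values of these arrays, the genes described here among them. Its p-values are therefore no independent evidence of an effect of light in KO mice, and which mouse each of the 2 arrays came from is not known. In what follows, a gene that rose or fell with the exchanged arrays did so in that assignment.

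Interferons are secreted when sensors such as RIG-I and MDA5 detect foreign or misplaced nucleic acid. Receptors of type I interferon activate a complex that holds STAT2 and IRF9 and binds the interferon-stimulated response element (ISRE) near the start of their target genes, whereas interferon-γ acts mainly on the GAS element. The targets hinder viral replication and, through the immunoproteasome, the TAP transporter and β2-microglobulin, raise the display of peptides on MHC class I. In the retina Müller glia, microglia and vascular cells are able to respond to interferons, and neurons express little MHC class I at rest.

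RefSeq promoters of the mouse assembly GRCm38.p6, from 250 bases before to 50 bases after a start, were found for 30 of the 36 listed genes and for 24 of the 30 measured genes. The core of the ISRE was searched on both strands as a pair of GAAA with any 2 bases between them, which reads as a pair of TTTC on the opposite strand. It occurred in 14 of the 30 promoters (46.7%) and in 3.99% of the promoters of all 27025 genes in the table. The core of the GAS element, searched as TTCNNNGAA, which reads the same on both strands, occurred in 8 of 30 (26.7%) against 9.55% of all. Matches of the 2 motifs may overlap, and a match is a description of the sequence only. The windows around the first ISRE match of 8 measured genes are shown because 6 of these genes were called higher in KO light than in KO dark with the exchanged arrays, defined above, and the last 2, Oas1a and Bst2, which hold the same letters, were not called. Capitals mark the ISRE letters, and each window runs 5′ to 3′ along the strand of its gene.
Ifit1, chr19:34640770-34640809, + strand: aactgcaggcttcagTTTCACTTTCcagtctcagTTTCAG
Ifit3, chr19:34583358-34583397, + strand: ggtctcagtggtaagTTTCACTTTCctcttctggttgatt
Stat2, chr10:128270261-128270300, + strand: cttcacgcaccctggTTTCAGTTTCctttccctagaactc
Ddx58, chr4:40239799-40239838, - strand: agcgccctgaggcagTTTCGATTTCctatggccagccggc
Gbp3, chr3:142559984-142560023, + strand: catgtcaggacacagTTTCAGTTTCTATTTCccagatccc
B2m, chr2:122147533-122147572, + strand: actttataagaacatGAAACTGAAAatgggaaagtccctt
Oas1a, chr5:120907521-120907560, - strand: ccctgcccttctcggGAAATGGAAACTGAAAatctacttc
Bst2, chr8:71537578-71537617, - strand: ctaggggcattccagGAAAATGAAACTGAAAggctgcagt

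The question put to KO light and KO dark is how the retina of the knockout answers light. As labelled, 29 of the 30 genes had a higher mean in KO light, with a median log2 difference of 0.29. A gene was called where its limma p, adjusted over all genes, was below 0.05 and its ratio reached 1.2 or fell to 0.87. None of the 30 was called, and 0.100% of all genes were. At an unadjusted p under 0.05, 19 of the 30 passed, and 13.9% of all genes did. With the exchanged arrays 24 of the 30 rose, none fell, and the median log2 difference was 0.55, where 13.3% of all genes were called in either direction. All 24 were called by limma over 19937 genes. Leaving out KO light replicate 3 and using no other array in its place gave 21 called genes, all of them among the 24, where 9.94% of all genes were called. With the 6 arrays of KO light and KO dark alone, as labelled, none of the 30 was called (0.0201% of all genes).

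The 3 arrays labelled KO light were unlike each other. The mean log2 intensity over the 30 genes was 8.04, 7.80 and 7.38 in KO light replicates 1 to 3 and 8.23 in WT dark replicate 4. It was 7.29, 7.35 and 7.34 in KO dark, 7.33, 7.37 and 7.40 in WT dark replicates 1 to 3 and 7.53, 7.47 and 7.69 in WT light. KO light replicate 3 thus stood within the range of the dark arrays, and WT dark replicate 4 stood above every other array. In KO light replicate 1, 28 of the 30 genes were above all 6 arrays of KO dark and WT dark replicates 1 to 3, in replicate 2 there were 22 and in replicate 3 there were 4, where 22.3%, 26.9% and 17.2% of all genes were above them. In WT dark replicate 4 there were 28 (27.2% of all genes), and in WT light 15, 10 and 21 (25.6%, 23.6% and 29.4%).

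**Figure D1:**
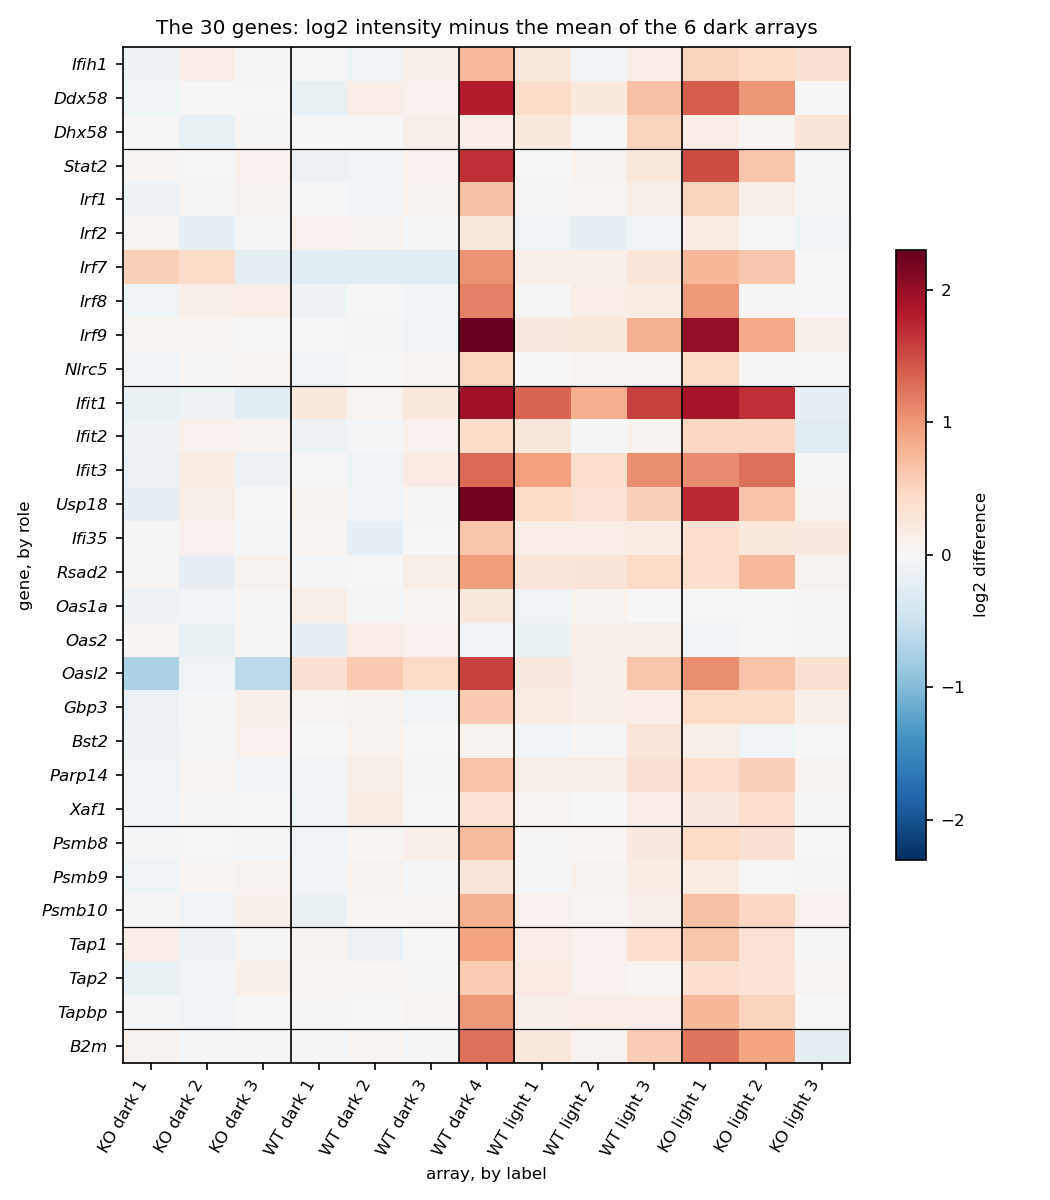
Log2 intensity of each of the 30 measured genes (rows, by role) in each of the 13 arrays (columns, by label), as the difference from that gene's mean over the 6 arrays of KO dark and WT dark replicates 1 to 3. WT dark replicate 4 and KO light replicate 1 are high for 28 of the 30 genes and KO light replicate 2 for 22. KO light replicate 3 lies within the range of the 6 dark arrays for 24, above it for 4 and below it for 2.

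**Figure D2:**
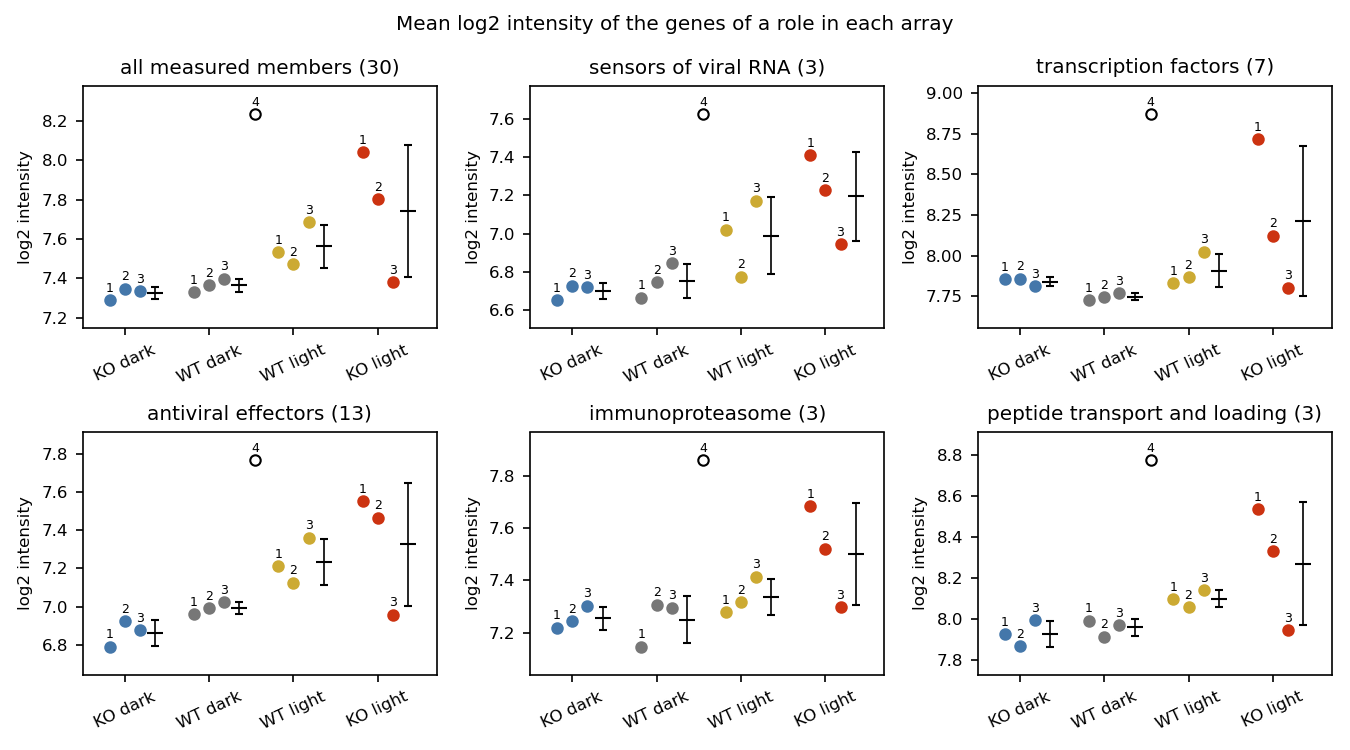
Mean log2 intensity over the genes of a role in each array, numbered by replicate, with the mean and SD of 3 arrays beside each group. The open circle is WT dark replicate 4, which is not part of the WT dark mean. In each panel it lies above all other arrays, and KO light replicate 3 lies near the dark arrays in all panels but that of the sensors.

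Among the sensors of viral RNA, Ddx58, which encodes RIG-I, and Ifih1, which encodes MDA5, rose with the exchanged arrays, and Dhx58, which encodes LGP2, was not called. Ddx58 had log2 intensities of 7.73, 7.85 and 7.84 in KO dark, 7.66, 7.98 and 7.94 in WT dark, 8.26, 8.05 and 8.51 in WT light, 9.23, 8.85 and 7.84 in KO light and 9.64 in WT dark replicate 4. KO light replicates 1 and 2 and WT dark replicate 4 were above all other arrays, WT light lay between them and the dark arrays without overlap, and KO light replicate 3 was at the dark level. Between KO light and KO dark, Ddx58 differed on the log2 scale by 0.83 as labelled (SE 0.26, limma adjusted p = 0.204) and 1.43 with the exchanged arrays (SE 0.16, adjusted p = 7.55e-05, 9.16e-06 to 0.61 over all alternatives). Ifih1 stood at 6.88, 6.83 and 6.73 in KO light and 7.12 in WT dark replicate 4, against 6.26, 6.53 and 6.33 in KO dark, 6.38, 6.27 and 6.50 in WT dark and 6.62, 6.30 and 6.53 in WT light. Here KO light replicate 3 was also above all dark and WT light arrays, so that KO light did not overlap with KO dark or WT light as labelled. Its log2 difference against KO dark was 0.44 as labelled (SE 0.09, limma adjusted p = 0.0919) and 0.57 with the exchanged arrays (SE 0.10, adjusted p = 0.00136, 0.00136 to 0.575 over all alternatives). Dhx58 varied little, at 6.12, 6.003 and 6.27 in KO light and 6.12 in WT dark replicate 4, against 5.96, 5.81 and 5.99 in KO dark, 5.96, 5.98 and 6.10 in WT dark and 6.19, 5.97 and 6.48 in WT light. Its highest array was WT light replicate 3, the 3 arrays labelled KO light lay above KO dark, and its log2 difference against KO dark was 0.21 as labelled (SE 0.11, limma adjusted p = 0.423) and 0.16 with the exchanged arrays (SE 0.10, adjusted p = 0.28, 0.251 to 0.688 over all alternatives).

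Of the 7 transcription factors, 6 rose against KO dark with the exchanged arrays, all but Irf2. Stat2 and Irf9, which encode parts of the complex that binds the ISRE, had the widest spread between arrays. Stat2 was measured at 8.61, 8.57 and 8.66 in KO dark, 8.44, 8.47 and 8.66 in WT dark, 8.58, 8.65 and 8.82 in WT light, 10.07, 9.21 and 8.53 in KO light and 10.24 in WT dark replicate 4. KO light replicate 2 lay between the dark arrays and the pair of KO light replicate 1 and WT dark replicate 4, and WT light overlapped with both dark groups. For Stat2 the log2 difference was 0.66 as labelled (SE 0.26, limma adjusted p = 0.296) and 1.23 with the exchanged arrays (SE 0.19, adjusted p = 0.000659, 5.05e-07 to 0.657 over all alternatives). Irf9 was measured at 8.17, 8.16 and 8.10 in KO dark, 8.12, 8.08 and 8.05 in WT dark, 8.32, 8.35 and 8.93 in WT light, 10.14, 8.99 and 8.23 in KO light and 10.38 in WT dark replicate 4. Its order of arrays was like that of Stat2, except that WT light lay above both dark groups and WT light replicate 3 was close to KO light replicate 2. Irf9 differed by 0.98 as labelled (SE 0.34, limma adjusted p = 0.24) and 1.69 with the exchanged arrays (SE 0.27, adjusted p = 0.000724, 1.82e-06 to 0.628 over all alternatives).

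Irf8, a factor of myeloid cells that also binds with other interferon regulatory factors, was at 6.97, 7.19 and 7.23 in KO dark, 6.96, 7.08 and 7.02 in WT dark, 7.10, 7.23 and 7.24 in WT light, 8.08, 7.10 and 7.09 in KO light and 8.23 in WT dark replicate 4. Only KO light replicate 1 and WT dark replicate 4 were high, and KO light replicate 2 was within the range of KO dark. Its log2 difference was 0.29 as labelled (SE 0.20, limma adjusted p = 0.562) and 0.67 with the exchanged arrays (SE 0.21, adjusted p = 0.0361, 4.90e-06 to 0.925 over all alternatives). Without KO light replicate 1, the difference with the exchanged arrays was no longer called. Nlrc5, the transactivator of MHC class I genes, was at 7.25, 6.81 and 6.81 in KO light and 7.28 in WT dark replicate 4, against 6.72, 6.81 and 6.83 in KO dark, 6.72, 6.79 and 6.86 in WT dark and 6.77, 6.85 and 6.86 in WT light. Its order was like that of Irf8. Nlrc5 is the mean of 19 probe sets, of which 15 were above the 6 dark arrays in KO light replicate 1, 12 in WT dark replicate 4, 5 in KO light replicate 2 and 3 in KO light replicate 3. Its log2 difference was 0.17 as labelled (SE 0.10, limma adjusted p = 0.492) and 0.33 with the exchanged arrays (SE 0.10, adjusted p = 0.0328, 8.81e-05 to 0.958 over all alternatives). The latter was likewise not called without KO light replicate 1, and the brightest of its probe sets alone gave -0.06 as labelled.

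Irf1, a factor induced early by interferon-γ, was read by 2 probe sets that disagree. The first stood at 7.54, 6.87 and 6.59 in KO light, 7.89 in WT dark replicate 4 and 6.25 to 6.57 in the 6 dark arrays. The second stayed between 6.84 and 7.11 in all 13 arrays. Their mean had a log2 difference of 0.23 as labelled (SE 0.10, limma adjusted p = 0.357) and 0.44 with the exchanged arrays (SE 0.11, adjusted p = 0.0104, 0.000119 to 0.788 over all alternatives), and the brighter, second probe set alone gave -0.12 as labelled. Irf7, the factor that amplifies interferon production, was at 8.88, 8.76 and 8.12 in KO dark, 8.08, 8.09 and 8.06 in WT dark, 8.45, 8.45 and 8.60 in WT light, 9.09, 8.94 and 8.35 in KO light and 9.37 in WT dark replicate 4. KO dark replicates 1 and 2 were close to KO light replicate 2 and KO dark replicate 3 was near WT dark. Its log2 difference against KO dark was 0.21 as labelled (SE 0.19, limma adjusted p = 0.69) and 0.55 with the exchanged arrays (SE 0.16, adjusted p = 0.0238, 0.018 to 0.983 over all alternatives). Irf2, an antagonist of Irf1 at many promoters, was at 9.13, 8.95 and 8.87 in KO light and 9.19 in WT dark replicate 4, against 9.02, 8.77 and 8.91 in KO dark, 9.06, 9.04 and 8.92 in WT dark and 8.86, 8.76 and 8.86 in WT light. Its groups lay close together, with WT light below WT dark without overlap, and its log2 difference was 0.08 as labelled (SE 0.08, limma adjusted p = 0.706) and 0.19 with the exchanged arrays (SE 0.07, adjusted p = 0.0842, 0.0222 to 0.99 over all alternatives) against KO dark.

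**Figure D3:**
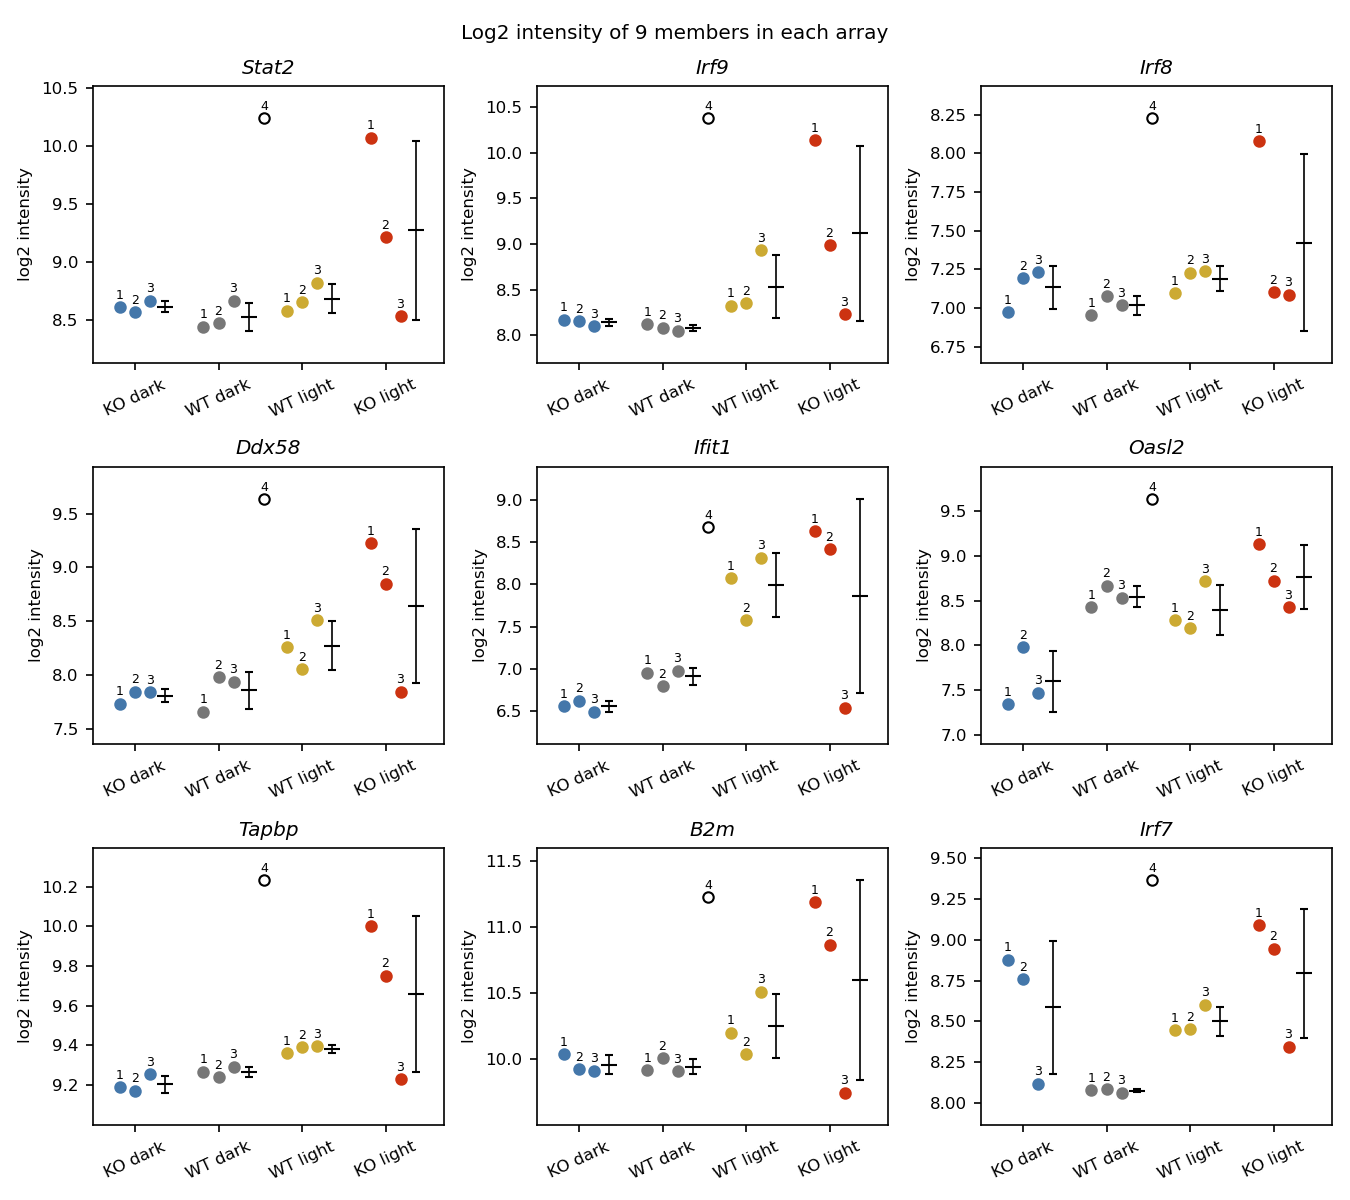
Log2 intensity of 9 genes in each array, numbered by replicate, with the mean and SD of the 3 arrays of a group beside it. The open circle is WT dark replicate 4, outside the WT dark mean. In all panels WT dark replicate 4 is the highest array and KO light replicate 3 the lowest of KO light, next to KO light replicate 2 in the case of Irf8. Oasl2 is low in KO dark, and Ifit1 is raised in WT light as far as 8.32.

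The antiviral effectors held the largest difference, that of Ifit1. Of the 13 genes 10 rose against KO dark with the exchanged arrays, namely Ifit1, Ifit2, Ifit3, Usp18, Ifi35, Rsad2, Oasl2, Gbp3, Parp14 and Xaf1. Ifit1, whose product binds foreign 5′ ends of RNA, was at 6.56, 6.62 and 6.49 in KO dark, 6.96, 6.80 and 6.98 in WT dark, 8.08, 7.58 and 8.32 in WT light, 8.63, 8.42 and 6.54 in KO light and 8.68 in WT dark replicate 4. KO light replicates 1 and 2, WT dark replicate 4 and all 3 WT light arrays were above every dark array, and KO light replicate 3 was at the level of KO dark. Its log2 difference between KO light and KO dark was 1.30 as labelled (SE 0.40, limma adjusted p = 0.204) and 2.01 with the exchanged arrays (SE 0.14, adjusted p = 3.99e-06, 3.16e-06 to 0.589 over all alternatives). Ifit3, a partner of Ifit1, was at 7.91, 8.21 and 7.91 in KO dark, 8.04, 7.93 and 8.23 in WT dark, 8.98, 8.44 and 9.11 in WT light, 9.12, 9.31 and 8.02 in KO light and 9.35 in WT dark replicate 4. The groups were ordered as for Ifit1, and KO light replicate 2 was higher than replicate 1. The log2 difference of Ifit3 was 0.80 as labelled (SE 0.27, limma adjusted p = 0.23) and 1.25 with the exchanged arrays (SE 0.15, adjusted p = 9.67e-05, 9.67e-05 to 0.591 over all alternatives). Ifit2, the third gene of the family on the list, was lower in amplitude, at 7.18, 7.18 and 6.45 in KO light and 7.13 in WT dark replicate 4, against 6.59, 6.81 and 6.78 in KO dark, 6.58, 6.66 and 6.80 in WT dark and 6.97, 6.67 and 6.79 in WT light. KO light replicates 1 and 2 and WT dark replicate 4 were above all others, and KO light replicate 3 was the lowest array. Its log2 difference was 0.21 as labelled (SE 0.16, limma adjusted p = 0.623) and 0.44 with the exchanged arrays (SE 0.08, adjusted p = 0.00191, 0.00191 to 0.923 over all alternatives).

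Usp18, the protease that removes ISG15 from proteins and damps the receptor of type I interferon, was at 6.91, 7.24 and 7.12 in KO dark, 7.19, 7.05 and 7.14 in WT dark, 7.54, 7.44 and 7.66 in WT light, 8.82, 7.76 and 7.19 in KO light and 9.32 in WT dark replicate 4. KO light replicate 1 exceeded replicate 2 by 1.06 log2 units, and WT light was above WT dark without overlap. Its log2 difference against KO dark was 0.83 as labelled (SE 0.28, limma adjusted p = 0.235) and 1.54 with the exchanged arrays (SE 0.27, adjusted p = 0.00142, 1.42e-06 to 0.645 over all alternatives). Rsad2, which encodes viperin, was at 5.95, 6.28 and 5.62 in KO light and 6.50 in WT dark replicate 4, against 5.57, 5.36 and 5.62 in KO dark, 5.50, 5.53 and 5.69 in WT dark and 5.83, 5.84 and 6.01 in WT light. It was highest in WT dark replicate 4 and KO light replicate 2, and WT light was above both dark groups. Rsad2 differed on the log2 scale by 0.43 as labelled (SE 0.13, limma adjusted p = 0.203) and 0.73 with the exchanged arrays (SE 0.12, adjusted p = 0.000776, 0.000155 to 0.61 over all alternatives). Gbp3, which encodes a guanylate-binding protein, was at 6.94, 6.91 and 6.60 in KO light and 7.09 in WT dark replicate 4, against 6.35, 6.46 and 6.60 in KO dark, 6.55, 6.57 and 6.40 in WT dark and 6.66, 6.60 and 6.63 in WT light. The 3 high arrays did not overlap with any other, and the log2 difference was 0.35 as labelled (SE 0.09, limma adjusted p = 0.162) and 0.51 with the exchanged arrays (SE 0.07, adjusted p = 0.000266, 0.000266 to 0.591 over all alternatives).

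Parp14, which encodes an ADP-ribosyltransferase, was at 7.09, 7.25 and 6.79 in KO light and 7.35 in WT dark replicate 4, against 6.62, 6.77 and 6.63 in KO dark, 6.62, 6.83 and 6.73 in WT dark and 6.84, 6.84 and 7.06 in WT light. KO light did not overlap with KO dark even as labelled, at a log2 difference of 0.37 as labelled (SE 0.11, limma adjusted p = 0.181) and 0.56 with the exchanged arrays (SE 0.08, adjusted p = 0.000421, 0.000421 to 0.591 over all alternatives). Ifi35 was at 7.45, 7.31 and 7.27 in KO light and 7.71 in WT dark replicate 4, against 7.09, 7.17 and 7.03 in KO dark, 7.14, 6.89 and 7.08 in WT dark and 7.21, 7.22 and 7.23 in WT light. All 3 arrays labelled KO light were above KO dark and WT light, and its log2 difference was 0.24 as labelled (SE 0.07, limma adjusted p = 0.177) and 0.39 with the exchanged arrays (SE 0.09, adjusted p = 0.00717, 0.00165 to 0.64 over all alternatives). Xaf1, an interferon target linked to apoptosis, was at 6.81, 6.99 and 6.56 in KO light and 6.90 in WT dark replicate 4, against 6.51, 6.63 and 6.58 in KO dark, 6.50, 6.76 and 6.59 in WT dark and 6.66, 6.58 and 6.75 in WT light. KO light replicate 2 was its highest array, and its log2 difference was 0.21 as labelled (SE 0.10, limma adjusted p = 0.358) and 0.33 with the exchanged arrays (SE 0.07, adjusted p = 0.00576, 0.00576 to 0.751 over all alternatives). Oas1a and Oas2, which make the activator of RNase L, and Bst2, which encodes tetherin, were not called. Oas1a stood at 6.79, 6.80 and 6.82 in KO light and 7.04 in WT dark replicate 4, against 6.68, 6.72 and 6.82 in KO dark, 6.93, 6.76 and 6.83 in WT dark and 6.69, 6.87 and 6.80 in WT light. Oas2 was at 6.46, 6.55 and 6.51 in KO light and 6.47 in WT dark replicate 4, against 6.59, 6.40 and 6.58 in KO dark, 6.36, 6.71 and 6.64 in WT dark and 6.40, 6.68 and 6.69 in WT light. The groups of both genes overlapped throughout. Bst2 was at 7.82, 7.58 and 7.68 in KO light and 7.76 in WT dark replicate 4, against 7.56, 7.63 and 7.79 in KO dark, 7.68, 7.75 and 7.67 in WT dark and 7.62, 7.71 and 7.97 in WT light. WT light replicate 3 was its highest array. The log2 differences of the 3 genes with the exchanged arrays were 0.13 (SE 0.07, 0.06 as labelled), -0.03 (SE 0.09, -0.02 as labelled) and 0.06 (SE 0.09, 0.03 as labelled).

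Oasl2, an interferon-induced relative of the oligoadenylate synthetases, differed from the others in the dark. It was at 7.34, 7.98 and 7.47 in KO dark and at 8.43, 8.67 and 8.53 in WT dark replicates 1 to 3. It was at 8.28, 8.19 and 8.71 in WT light, 9.13, 8.72 and 8.43 in KO light and 9.64 in WT dark replicate 4. All 3 KO dark arrays were below all other arrays, and WT light overlapped with WT dark. The log2 difference between KO light and KO dark was 1.16 as labelled (SE 0.19, limma adjusted p = 0.0534) and 1.57 with the exchanged arrays (SE 0.21, adjusted p = 0.000245, 5.98e-05 to 0.539 over all alternatives), and KO light replicate 3 took part in it.

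The immunoproteasome replaces the catalytic subunits of the constitutive proteasome and yields peptides that fit MHC class I. Psmb8 was at 6.42, 6.30 and 5.96 in KO light and 6.69 in WT dark replicate 4, against 5.93, 5.96 and 5.91 in KO dark, 5.85, 6.001 and 6.07 in WT dark and 5.98, 5.99 and 6.16 in WT light. KO light replicates 1 and 2 and WT dark replicate 4 were above all other arrays, and KO light replicate 3 was level with the dark arrays. Its log2 difference was 0.29 as labelled (SE 0.10, limma adjusted p = 0.238) and 0.53 with the exchanged arrays (SE 0.09, adjusted p = 0.000986, 0.000317 to 0.634 over all alternatives). Psmb10 was at 8.47, 8.27 and 7.90 in KO light and 8.61 in WT dark replicate 4, against 7.83, 7.71 and 7.91 in KO dark, 7.65, 7.84 and 7.86 in WT dark and 7.90, 7.87 and 7.91 in WT light, in the same order. Its log2 difference was 0.39 as labelled (SE 0.12, limma adjusted p = 0.188) and 0.63 with the exchanged arrays (SE 0.08, adjusted p = 0.0002, 3.71e-05 to 0.607 over all alternatives). Psmb9 moved less, at 8.17, 7.996 and 8.04 in KO light and 8.28 in WT dark replicate 4, against 7.90, 8.06 and 8.09 in KO dark, 7.94, 8.08 and 7.96 in WT dark and 7.96, 8.09 and 8.17 in WT light. KO light replicate 2 was within the range of the dark arrays, and the log2 difference of Psmb9 was 0.05 as labelled (SE 0.07, limma adjusted p = 0.816) and 0.13 with the exchanged arrays (SE 0.08, adjusted p = 0.261, 0.0774 to 1 over all alternatives).

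Psmb9 and Tap1 lie head to head on chromosome 17, and the promoter windows of their RefSeq entries share 275 bases (chr17:34187306-34187580, GRCm38.p6) without the ISRE letters. Tap1, a subunit of the transporter that carries peptides into the endoplasmic reticulum, was at 7.76, 7.43 and 7.06 in KO light and 8.02 in WT dark replicate 4, against 7.26, 6.997 and 7.13 in KO dark, 7.19, 6.97 and 7.11 in WT dark and 7.26, 7.21 and 7.49 in WT light. KO light replicate 2 was below WT light replicate 3, so that KO light and WT light overlapped in either assignment of the arrays. Its log2 difference against KO dark was 0.29 as labelled (SE 0.14, limma adjusted p = 0.398) and 0.61 with the exchanged arrays (SE 0.12, adjusted p = 0.004, 0.000346 to 0.825 over all alternatives). Tap2, the other subunit, was at 7.85, 7.81 and 7.55 in KO light and 8.08 in WT dark replicate 4, against 7.33, 7.43 and 7.60 in KO dark, 7.52, 7.53 and 7.51 in WT dark and 7.68, 7.58 and 7.54 in WT light. KO light replicates 1 and 2 and WT dark replicate 4 were above all other arrays, at a log2 difference of 0.29 as labelled (SE 0.08, limma adjusted p = 0.188) and 0.46 with the exchanged arrays (SE 0.08, adjusted p = 0.000984, 0.000795 to 0.595 over all alternatives). Tapbp, which encodes tapasin, the bridge from the transporter to empty MHC class I, was at 9.19, 9.17 and 9.25 in KO dark, 9.27, 9.24 and 9.29 in WT dark, 9.36, 9.39 and 9.40 in WT light, 10.001, 9.75 and 9.23 in KO light and 10.23 in WT dark replicate 4. The 3 high arrays were apart from all others by more than the whole spread of the dark and WT light arrays. Tapbp differed on the log2 scale by 0.46 as labelled (SE 0.14, limma adjusted p = 0.194) and 0.79 with the exchanged arrays (SE 0.09, adjusted p = 5.90e-05, 1.85e-06 to 0.607 over all alternatives).

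B2m, the light chain that all MHC class I molecules share, was at 10.04, 9.92 and 9.91 in KO dark, 9.92, 10.01 and 9.91 in WT dark, 10.20, 10.04 and 10.51 in WT light, 11.19, 10.87 and 9.75 in KO light and 11.23 in WT dark replicate 4. It was high in KO light replicates 1 and 2 and WT dark replicate 4, and lowest of all 13 arrays in KO light replicate 3. WT light lay above WT dark without overlap, a difference that was not called, and WT light replicate 2 was level with KO dark replicate 1. The log2 difference of B2m between KO light and KO dark was 0.64 as labelled (SE 0.27, limma adjusted p = 0.31) and 1.13 with the exchanged arrays (SE 0.11, adjusted p = 2.37e-05, 7.23e-06 to 0.694 over all alternatives). In bulk retina fewer cells of a type and less RNA per cell cannot be told apart, nor can more cells and more RNA per cell.

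**Figure D4:**
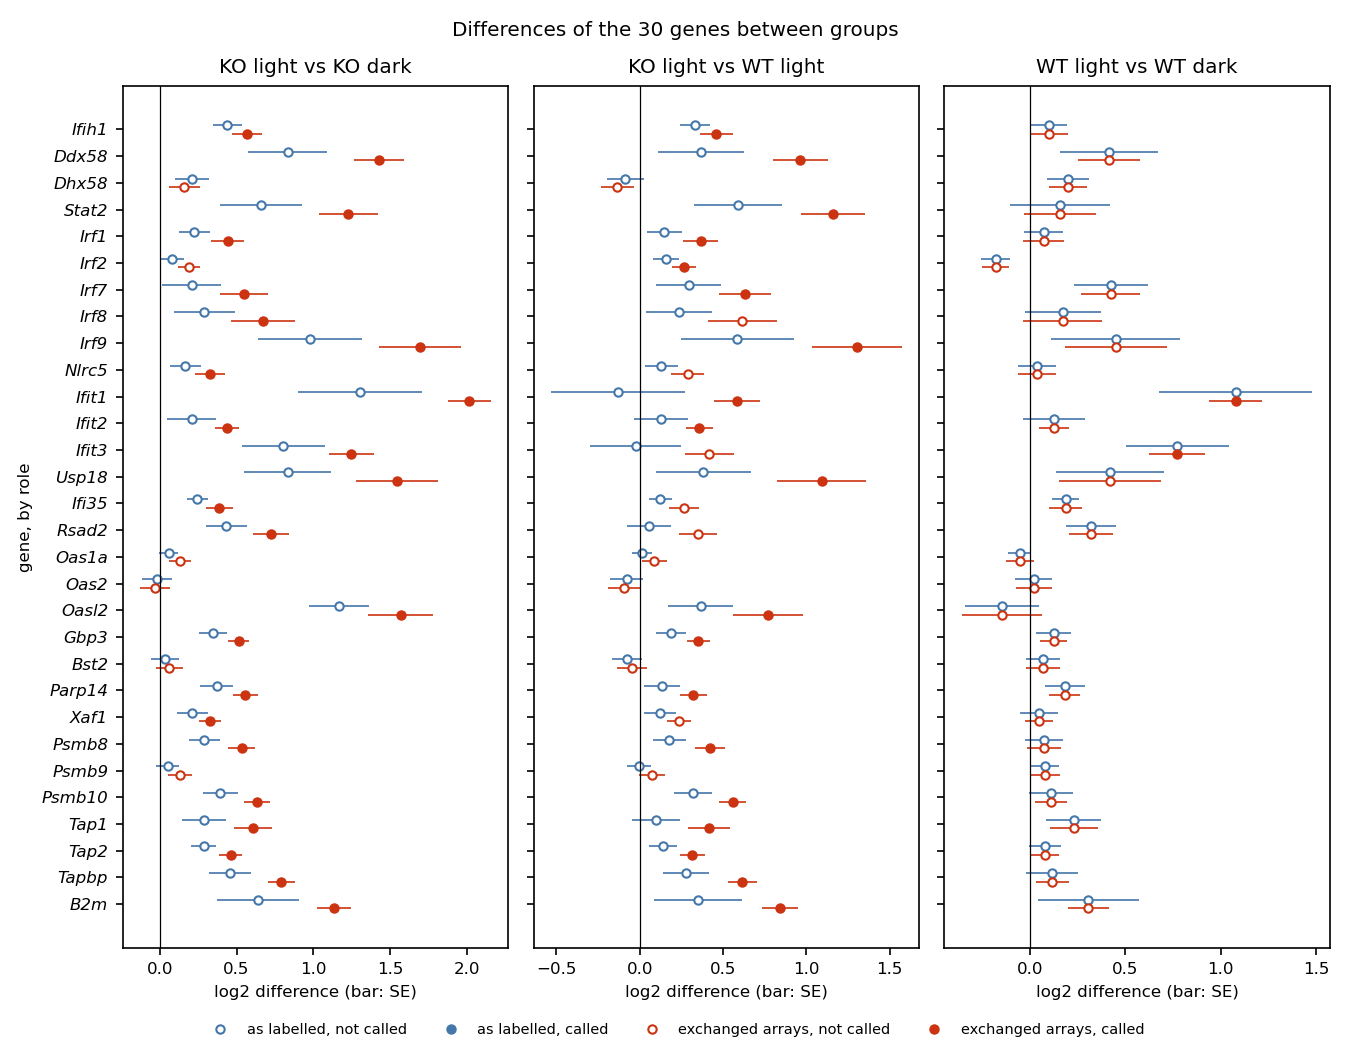
Log2 difference of each of the 30 genes in 3 comparisons, with the SE of the limma fit as bars, as labelled (blue) and with the exchanged arrays (red). Filled points were called. No blue point is filled, and in the 3 comparisons 24, 19 and 2 red points are. The estimates of WT light against WT dark are the same in both fits and only their SE differ.

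KO light was compared with WT light to ask how the genotypes differ after the same exposure. As labelled 24 of the 30 genes had a higher mean in KO light, the median log2 difference was 0.14, and none was called (0.176% of all genes). At an unadjusted p under 0.05, 3 passed (12.9% of all genes). With the exchanged arrays 19 of the 30 rose and none fell (8.23% of all genes called in either direction), with a median of 0.39. The 3 KO light arrays lay above the 3 WT light arrays for 20 of the 30 genes with the exchanged arrays (13.9% of all genes) and for 3 as labelled, Ifih1, Irf2 and Ifi35 (5.63% of all genes). The comparison shares its KO light arrays with the one above.

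With the exchanged arrays the largest differences from WT light were those of Irf9, Stat2, Usp18 and Ddx58. In that assignment Irf9 was higher by 1.30 (SE 0.27, 0.59 as labelled) on the log2 scale, Stat2 by 1.16 (SE 0.19, 0.59 as labelled), Usp18 by 1.09 (SE 0.27, 0.38 as labelled) and Ddx58 by 0.96 (SE 0.16, 0.37 as labelled). None of these was called as labelled, and that of Usp18 was -0.07 as labelled without KO light replicate 1. The log2 difference of B2m was 0.35 as labelled (SE 0.27, limma adjusted p = 0.626) and 0.84 with the exchanged arrays (SE 0.11, adjusted p = 0.000496, 8.28e-05 to 0.955 over all alternatives). That of Tapbp was 0.28 as labelled (SE 0.14, limma adjusted p = 0.42) and 0.61 with the exchanged arrays (SE 0.09, adjusted p = 0.000794, 1.74e-05 to 0.762 over all alternatives). Irf2, which was not called against KO dark, had a log2 difference from WT light of 0.16 as labelled (SE 0.08, limma adjusted p = 0.424) and 0.26 with the exchanged arrays (SE 0.07, adjusted p = 0.0329, 0.00774 to 0.726 over all alternatives). Ifit1 was lower in KO light by a log2 difference of -0.13 as labelled, not called, and higher by 0.58 (SE 0.14, limma adjusted p = 0.0162) with the exchanged arrays. With the exchanged arrays Ifit3, Xaf1, Rsad2, Ifi35, Irf8 and Nlrc5 rose against KO dark but were not called against WT light, with log2 differences of 0.42 (SE 0.15, -0.02 as labelled), 0.24 (SE 0.07, 0.12 as labelled), 0.35 (SE 0.12, 0.06 as labelled), 0.27 (SE 0.09, 0.12 as labelled), 0.62 (SE 0.21, 0.23 as labelled) and 0.29 (SE 0.10, 0.13 as labelled). In the fit of the 6 arrays of KO light and WT light alone, as labelled, none of the 30 was called, nor was any other gene.

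WT light against WT dark, which holds neither array in doubt, had a higher mean for 27 of the 30 genes and a median log2 difference of 0.12. None was called as labelled (0.431% of all genes). At an unadjusted p under 0.05, 6 passed, of which Irf2 was lower in WT light. That count is close to the share of all genes, 17.1%. Ifit1 and Ifit3 rose in the fit with the exchanged arrays, in which 4.41% of all genes were called and which changes for this comparison only the spread that the groups share. The log2 difference of Ifit1 was 1.08, with limma adjusted p = 0.205 as labelled, 0.00107 with the exchanged arrays and 0.00107 to 0.697 over all alternatives. That of Ifit3 was 0.77, with limma adjusted p = 0.182, 0.00914 and 0.00914 to 0.69. When the 6 arrays of the compared groups were fitted alone, Ifit1, Ifit3, Irf7, Rsad2 and Usp18 rose, at log2 differences of 0.42 for Irf7, 0.32 for Rsad2 and 0.42 for Usp18, where 3.41% of all genes were called. WT light lay above WT dark without overlap for 16 of the 30 genes (17.5% of all genes), among them Ddx58, Irf9, Tapbp and B2m, and below it for Irf2 (10.7%). In WT mice the log2 difference of B2m was 0.31 (SE 0.27) and that of Stat2 was 0.16 (SE 0.26), both not called. WT light replicate 3 was the highest of the WT light arrays for the mean of the 30 genes and replicate 2 the lowest.

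In the dark, 11 genes had a higher and 19 a lower mean in KO than in WT, with a median log2 difference of -0.04. None was called as labelled (0.0752% of all genes) or with the exchanged arrays (0.878%), and 2 and 3 passed at an unadjusted p under 0.05, where 7.10% and 10.3% of all genes did. The 3 KO dark arrays lay below the 3 WT dark arrays for Oasl2 and Ifit1 (7.45% of all genes) and above them for Irf7 (9.26%). Oasl2 had a log2 difference of -0.95 as labelled (SE 0.19, limma adjusted p = 0.103) and -0.95 with the exchanged arrays (SE 0.21, adjusted p = 0.056, 0.0168 to 0.407 over all alternatives). It was called lower in the fit of the 6 dark arrays alone (0.722% of all genes), with array weights, and without KO light replicate 3. Ifit1 was at 6.56, 6.62 and 6.49 in KO dark and 6.96, 6.80 and 6.98 in WT dark, a log2 difference of -0.35 (SE 0.40) that was not called. Irf7 was at 8.88, 8.76 and 8.12 and 8.08, 8.09 and 8.06, a log2 difference of 0.51 (SE 0.19) that was not called and was carried by KO dark replicates 1 and 2. The other 27 genes overlapped between the genotypes in the dark, with log2 differences within 0.2 of 0.

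The interaction of genotype and light subtracts the difference between WT light and WT dark from that between KO light and KO dark. As labelled 26 of the 30 genes had a positive interaction, with a median of 0.18 on the log2 scale, and none was called (0.0602% of all genes), where 3 passed at an unadjusted p under 0.05 (6.86% of all genes). Exchanging the arrays gave a median of 0.39, and Ddx58, Ifit1, Oasl2, Psmb10, Tapbp and B2m were called, all positive (2.78% of all genes called in either direction). The interaction of Oasl2 was 1.31 as labelled (SE 0.27, limma adjusted p = 0.196) and 1.72 with the exchanged arrays (SE 0.30, adjusted p = 0.0106, 0.00112 to 0.479 over all alternatives), and it includes the low level of KO dark. The interaction of B2m was 0.34 as labelled (SE 0.38, limma adjusted p = 0.902) and 0.83 with the exchanged arrays (SE 0.16, adjusted p = 0.0152, 0.00172 to 0.987 over all alternatives). For Tapbp it was 0.34 as labelled (SE 0.19, limma adjusted p = 0.782) and 0.68 with the exchanged arrays (SE 0.12, adjusted p = 0.0134, 0.00023 to 0.914 over all alternatives). For Stat2, Irf9 and Usp18 the interaction was 1.07, 1.24 and 1.12 with the exchanged arrays and 0.50, 0.53 and 0.41 as labelled, and was called in neither. The calls depended on single arrays. With the exchanged arrays and without KO light replicate 1, 3 of the 30 were called (1.71% of all genes), Oasl2, Tapbp and B2m, and Ddx58, Ifit1 and Psmb10 were not. Without KO light replicate 2 instead, 16 were called (6.13% of all genes), Stat2, Irf9 and Usp18 among them. The interaction rests on the same KO dark and WT dark arrays as the comparisons above.

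Within the 3 high arrays the genes did not keep 1 ratio. WT dark replicate 4 was the highest of the 3 for 26 of the 30 genes and KO light replicate 2 the lowest for 23, where 32.8% and 31.5% of all genes had these orders. KO light replicate 1 exceeded replicate 2 by 1.15 on the log2 scale for Irf9, 1.06 for Usp18, 0.98 for Irf8 and 0.86 for Stat2. For each of the other 26 it was less than 0.5 above replicate 2, or below it. For 7 genes replicate 2 was the higher of the pair, by 0.34 for Rsad2, 0.18 for Ifit3 and for Xaf1, 0.16 for Parp14 and 0.10 or less for Oas2, Oas1a and Ifit2. Irf8 and Nlrc5 were thus at the dark level in an array in which Ifit1, Ifit2, Ifit3, Rsad2, Xaf1 and Parp14 were as high as in KO light replicate 1 or nearly so. These are values of single arrays, without a test.

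Of 104 other genes of interferon signalling and antigen presentation, 95 were measured, and as labelled none of them was called in any of the 5 comparisons. Between KO light and KO dark their median log2 difference was 0.13 as labelled and 0.18 with the exchanged arrays, beside a median of all genes of -0.01 with the exchanged arrays. In KO light against KO dark 41 rose and 2 fell with the exchanged arrays, where 13.3% of all genes were called in either direction. Against WT light 25 rose and none fell (8.23% of all genes). Between WT light and WT dark 6 rose and 1 fell (4.41% of all genes), and the interaction was positive for 13 (2.78% of all genes).

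The values of these genes are given with the exchanged arrays and, in the same brackets, as labelled. The counts per group that follow are those of KO light against KO dark, where 13.3% of all genes were called in either direction. Further targets of interferon were the largest group, with 24 of 35 called higher against KO dark with the exchanged arrays. The chemokine gene Cxcl10 was at 7.32, 8.12 and 6.29 in KO light, 8.08 in WT dark replicate 4, 7.33, 7.27 and 7.55 in WT light, 5.95, 6.12 and 6.24 in KO dark and 6.05, 6.15 and 6.24 in WT dark. WT light and the 3 high arrays overlapped, and its log2 difference was 1.74 (SE 0.17, 1.14 as labelled) against KO dark and 1.23 (SE 0.17) between WT light and WT dark. Irgm1, a GTPase induced by interferon-γ, rose by 1.69 (SE 0.19, 1.02 as labelled), with 8.39, 7.59 and 6.63 in KO light, 8.64 in WT dark replicate 4 and 7.03, 7.01 and 7.12 in WT light. Ifitm3, which blocks the fusion of viruses with endosomes, rose by 1.56 (SE 0.15, 1.00 as labelled) and the ubiquitin ligase gene Herc6 by 1.14 (SE 0.08, 0.80 as labelled). Mx1, a classic antiviral gene, was not called and lay between 3.95 and 4.33 in all 13 arrays. That is far below the median level of all genes, 7.49, so a change of Mx1 may not have been measurable.

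Upstream of these genes the differences were fewer. Of 10 genes of interferons and their receptors, the receptor genes Ifnar2 and Il10rb rose by 0.66 (SE 0.10, 0.43 as labelled) and 0.32 (SE 0.07, 0.23 as labelled) with the exchanged arrays and Ifng fell by a log2 difference of -0.21 (SE 0.06, -0.15 as labelled). Ifnb1, which encodes interferon-β, was between 5.14 and 5.59 in all 13 arrays, also below the median level of 7.49, and was not called. Of 14 genes of kinases and adaptors 2 rose, the adaptor Myd88 of Toll-like receptors by 1.46 (SE 0.15, 0.87 as labelled) and Sting1, which answers cytosolic DNA, by 0.47 (SE 0.08, 0.32 as labelled). A count of 2 of 14 is close to the 13.3% of all genes called. Of 9 inhibitors and modifiers 4 rose, among them the feedback inhibitor Socs3 by 0.78 (SE 0.11, 0.44 as labelled) and Ube2l6, which conjugates ISG15, by 1.01 (SE 0.09, 0.61 as labelled).

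On the side of antigen presentation, the proteasome activator genes Psme1 and Psme2 rose by 0.51 (SE 0.08, 0.29 as labelled) and 0.63 (SE 0.08, 0.37 as labelled) with the exchanged arrays. Among the constitutive catalytic subunits Psmb6 rose by 0.34 (SE 0.06, 0.18 as labelled), and Psmb5 and Psmb7 had log2 differences of 0.16 (SE 0.05, 0.08 as labelled) and 0.18 (SE 0.06, 0.06 as labelled), below the ratio required. Of 5 genes of peptide trimming and loading 4 rose, with 0.51 (SE 0.07, 0.38 as labelled) for the peptidase Erap1, 0.42 (SE 0.08, 0.27 as labelled) for Tapbpl, 0.39 (SE 0.05, 0.25 as labelled) for Pdia3 and 0.29 (SE 0.06, 0.21 as labelled) for calreticulin. In the dark Erap1 was also called lower in KO with the exchanged arrays, at a log2 difference of -0.35 (SE 0.07), with 6.63, 6.59 and 6.71 in KO dark and 6.91, 7.01 and 7.06 in WT dark. Of 9 other class I genes only H2-Q4 rose, by 1.03 (SE 0.14, 0.64 as labelled), a count close to the 13.3% of all genes called. Of 8 genes of MHC class II, Cd74, the invariant chain, rose by 0.47 (SE 0.11, 0.54 as labelled) and H2-Ob fell by a log2 difference of -0.24 (SE 0.05, -0.14 as labelled). Cd74 was at 6.84, 6.96 and 6.79 in KO light and 6.61 in WT dark replicate 4, so that here KO light replicate 3 was above KO dark, at 6.19, 6.28 and 6.51.

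Markers of other cells were read beside these genes. The mean over 8 markers of microglia and macrophages was 6.59, 6.59 and 6.49 in KO light and 6.61 in WT dark replicate 4. It was 6.48, 6.44 and 6.50 in WT light and 6.45 to 6.57 in the dark. The 3 high arrays were thus the highest, by a small margin. Of these markers Cd68 alone followed the 30 genes, with 8.42 and 8.03 in KO light replicates 1 and 2 and 8.71 in WT dark replicate 4 against 7.40 to 7.67 in the other 10. Cx3cr1, Csf1r, Tmem119, P2ry12, Aif1 and Ptprc did not, and the widest of their ranges over the 13 arrays was 0.53, that of P2ry12, while Itgam was highest in WT dark replicate 4 at 6.17. Means over 5 markers of T and NK cells, 2 of B cells and 3 of neutrophils stayed within 5.52 to 5.70, 4.62 to 4.87 and 4.98 to 5.17. Of 6 Müller glia markers, Gfap was at 9.75, 9.88 and 7.37 in KO light, 9.71 in WT dark replicate 4, 7.91, 8.39 and 8.98 in WT light and 7.07 to 7.47 in the dark. Vim, Slc1a3 and Aqp4 were highest in KO light replicates 1 and 2 and WT dark replicate 4, and Glul was lowest in them. Rlbp1 did not rise in them, at 10.19, 10.56 and 10.28 against 10.50 to 10.69 in the others. The mean over the 6 was 10.84, 10.99 and 10.37 in KO light and 10.85 in WT dark replicate 4. It was 10.55, 10.62 and 10.70 in WT light and 10.32 to 10.44 in the dark. Of 5 rod markers Nrl was at 9.09, 9.51 and 9.79 in KO light, 8.997 in WT dark replicate 4 and 9.82 to 9.96 in the dark and WT light arrays, and the mean over the 5 was lowest in the 3 high arrays, at 11.74, 11.93 and 11.68 against 12.04 to 12.17. Of 5 markers of endothelium and pericytes, Kdr was at 10.11, 10.36 and 9.54 in KO light, 10.22 in WT dark replicate 4 and 9.95, 10.01 and 10.22 in WT light, against 9.36 to 9.62 in the dark, and Cldn5 was at 8.64, 8.92 and 8.29, 8.69 and 8.70, 8.44 and 8.70, against 8.20 to 8.44. Pecam1, Cdh5 and Pdgfrb varied by 0.25, 0.37 and 0.28 over the 13 arrays. The mean over the 5 was 8.20, 8.36 and 8.06 in KO light, 8.27 in WT dark replicate 4 and 8.16, 8.15 and 8.22 in WT light, against 7.91 to 8.06 in the dark. The part of these cells in the results was not tested. The mean over 4 lens crystallins varied from 6.94 to 10.03, with WT light replicate 1 and KO light replicate 1 highest, and did not follow the order of the 30 genes, and neither did the mean over 5 markers of the pigment epithelium, at 7.29 to 8.46.

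Promoter letters and calls were set side by side without a test. Of the 11 measured genes with the ISRE letters in the promoter window 8 rose against KO dark with the exchanged arrays, and of the 13 with a window but without the letters 12 did. The median log2 difference was 0.73 for the former and 0.55 for the latter. Of the 6 measured genes that were not matched to a promoter 4 rose. Oasl2, Irf9 and Tapbp rose without the letters in their windows, and Bst2, Irf2 and Oas1a hold them and did not pass.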

How the data were processed

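Per the labels and the methods, the authors processed the arrays with Partek and Bioconductor, and the deposited table holds linear intensities already level between arrays. Version, summarization, normalization, genome build and filters are not given here by any source. Signal over background is unknown, dim genes were kept, and 3 arrays per group limit the precision.

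Intensities were taken to log2. Of 34760 probe sets, the 21640 with exactly 1 symbol were averaged to 19937 genes, and 1321 with several symbols and 11799 with none were left out. With limma 3.58.1 (R 4.3.3), 1 linear model of the 4 groups without covariates was fitted to 12 arrays, at 8 residual degrees of freedom, leaving out WT dark replicate 4. The study describes 3 arrays per group, and this array was the only male among the dark arrays. Its correlations with the other arrays, given above, also entered the choice. Benjamini-Hochberg adjustment ran over all 19937 genes in each of the 5 contrasts. The interaction was called by adjusted p alone. The fit was tested on simulated data.

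The members and lists were chosen with earlier results of these data known. The rule for genes given with every array took those called in either assignment of the arrays and, per contrast, the 2 highest and the 2 lowest differences. It left out Oas1a and Psmb9, which are given too. In each pathway group up to 4 called genes are named. Mx1, Ifnb1 and the order of arrays were singled out after their values were seen. Replicates are labelled as biological, and their numbers do not pair the groups. Alternatives were quantile normalization, a filter at the median level, the brightest probe set, unmoderated variances, array weights, a replicate block, the 6 arrays of a contrast alone, all 13 arrays, the exchanged arrays, and each array left out. The methods name an ANOVA without giving its model, and the fit with unmoderated variances need not repeat it. Exchanged arrays without KO light replicate 1 or 2 were added after seeing the data.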

Additional observations from a re-analysis of the deposited data

Results flagged for a closer look

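In WT dark with all 4 arrays, WT dark replicate 4 stood apart from the other 3 for 10 of the 30 genes. The measure is the gap to the nearest array as a share of the whole range of the group, and each share given is above Dixon's critical value for 4 arrays, which chance alone passes in about 5% of groups. Over all genes, WT dark replicate 4 was apart in this way as the highest array for 4.6% and as the lowest for 3.11%, and any array of the 4 was apart for 12.3%. The share was 0.984 for Irf7, 0.971 for Irf9, 0.952 for Tap2, 0.948 for Tapbp, 0.938 for Usp18 and 0.926 for B2m. It was 0.904 for Irf8 and for Ifit1, 0.876 for Stat2 and 0.839 for Ddx58. In each case WT dark replicate 4 was the highest array, and the other WT dark arrays lay close together.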

How the results depend on the processing

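As labelled no gene of the list was called in any comparison, and the count changed chiefly with KO light replicate 3. In the exchanged assignment 24 were called in KO light vs KO dark, 19 in KO light vs WT light, 2 in WT light vs WT dark, 6 in the interaction and 0 in the dark, and the medians moved to 0.55, 0.39, 0.12, 0.39 and -0.04. The shares of all genes called were 13.3%, 8.23%, 4.41%, 2.78% and 0.878%. With the exchanged arrays and without KO light replicate 1, the counts were 22, 15, 3, 3 and 0 in the same order, with medians of 0.56 against KO dark, 0.43 against WT light and 0.41 for the interaction. Of all 19937 genes, 2688, 1464, 861, 341 and 176 were called there. Without KO light replicate 2 the counts were 24, 22, 3, 16 and 1, with medians of 0.62, 0.47 and 0.45. Here 2990, 2069, 983, 1222 and 203 of all 19937 genes were called. As labelled with array weights the counts were 17, 2, 2, 0 and 1, and KO light replicate 3 had the lowest weight, 0.21. With these weights 1357, 430, 781, 40 and 184 of all 19937 genes were called. When each array was left out in turn, the counts ranged from 0 to 21 in KO light vs KO dark, 0 to 10 in KO light vs WT light, 0 to 2 in WT light vs WT dark, 0 to 3 in the interaction and 0 to 1 in the dark, and each highest value was that without KO light replicate 3. Without that array 1981, 1045, 857, 263 and 170 of all 19937 genes were called. Quantile normalization, the filter at the median level, the brightest probe set, and leaving out WT light replicate 3 each called 1 gene in KO light vs KO dark, Oasl2. In these settings, in the same order, 53, 41, 24 and 19 of all genes tested were called. The 6 arrays of a comparison alone called 1 gene in the dark, 5 in WT light vs WT dark and 0 in both comparisons of KO light. The shares of all genes in these fits are given above. With all 13 arrays by their labels, and without moderated variances, 0 were called throughout.

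Replicate numbers did not pair the groups, since correlations of deviations between arrays of the same number ran from -0.19 to 0.22. A replicate block left 0 of the 30 genes called in all 5 comparisons.

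Single genes reversed sign as follows, all from differences that were not called as labelled. In KO light vs WT light, Ifit1 turned from -0.13 to 0.58 with the exchanged arrays, 0.56 and 0.66 with these and without KO light replicate 1 or 2, and 0.33 with array weights. The brightest probe set gave -0.088 for Irf1 in KO light vs WT light, and -0.12 for Irf1 and -0.063 for Nlrc5 in KO light vs KO dark. Quantile normalization gave 0.016 for Oas2 in KO light vs KO dark. For Irf8 in the dark all 13 arrays gave -0.19. The interaction of Irf7 was 0.11 with all 13 arrays, 0.12 with the exchanged arrays, and 0.15 and 0.22 with these and without KO light replicate 1 or 2, and that of Oas2 was 0.0043 with array weights. When each array was left out, KO light vs WT light ranged from -0.51 to 0.53 for Ifit1, -0.068 to 0.75 for Usp18, -0.073 to 0.28 for Tap1 and -0.21 to 0.047 for Dhx58. KO light vs KO dark ranged from -0.024 to 0.43 for Irf7, -0.039 to 0.46 for Irf8, -0.078 to 0.018 for Oas2 and -0.031 to 0.095 for Bst2. The interaction ranged from -0.16 to 0.88 for Ifit1, -0.45 to 0.0085 for Irf7 and -0.13 to 0.069 for Oas2. The cause was not tested.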
